A study of Homo sapiens with 2 samples.

Results

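The 8 genes described here are p53 targets and one long noncoding RNA tied to p53: CDKN1A, MDM2, GDF15, PURPL, MIR34AHG, ZMAT3, SESN1 and PHLDA3. They were taken by gene symbol from the 36601 genes of the count matrices, and each symbol matched 1 row. The question was whether PURPL and GDF15 move with CDKN1A and MDM2 across the lineages of 2 single-cell libraries. Because the genes were chosen with results on these cells in view, the differences between the libraries are given as descriptions and not as tests.

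The libraries came from human inner ear organoids at day 40, made from WA25, a line of human embryonic stem cells, with nuclear tdTomato reporting SOX2, and reporter-positive cells were collected by flow sorting. The groups differ in the matrix: 1 library is labelled GelNB-CH, a hydrogel set by light, and 1 is labelled Matrigel, a basement membrane extract. The growth text given for both libraries lists FGF-2, SB-431542, BMP-4, LDN193189, CHIR99021, oDex and a low share of Matrigel in the early medium, and describes embedding only in GelNB-CH, with the photoinitiator LAP, PEG4SH and ultraviolet light. How the aggregates of the Matrigel group were embedded, and whether they saw the light, is not given in the sources used for this work. With 1 library in each group there is no replicate check, so no p-value is given, and the matrix cannot be told apart from any other difference between the 2 preparations.

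The tumour suppressor p53 is a transcription factor that is kept low by MDM2, a ubiquitin ligase whose own gene p53 activates. When stress stabilises p53, it raises genes that halt the cell cycle (CDKN1A, which encodes the CDK inhibitor p21), restrain growth signalling (SESN1, PHLDA3), shape the response through RNA (ZMAT3, an RNA-binding protein, and MIR34AHG, the host transcript of miR-34a) or act outside the cell (GDF15, a secreted cytokine that the ATF4 branch of the integrated stress response also induces). PURPL is a long noncoding RNA that p53 induces and that has been described as holding p53 levels down.

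Both libraries held droplet counts of unique molecular identifiers (UMIs), each standing for 1 captured transcript. The GelNB-CH library had 21743 barcodes and 247006223 UMIs, of which 18087 cells were kept with a median of 8534 UMIs. The Matrigel library had 10912 barcodes and 178672097 UMIs, of which 9813 cells were kept with a median of 14007. The libraries shared 78 barcodes, 63 of them among kept cells. Cells fell into 24 clusters, of which 20 were named from marker genes, and 9 lineages or unnamed clusters held at least 50 cells in both libraries. The sort label was checked on SOX2 itself, which had a UMI in 11.7% of kept cells of GelNB-CH and 18.1% of Matrigel, and in 3.68% and 2.71% of cartilage-like cells, where its level was 3.74 and 1.70 CPM, the UMIs of a gene scaled to 1e+06 UMIs in all. Otic epithelium-like cells numbered 6126 and 2365, and their 5 clusters carried 11 to 15 of the 20 otic markers listed. A further cluster led by CXCL14, KRT5 and KRT15 is called the keratin-rich epithelial cluster, with 589 and 267 cells. It too carried 15 of the 20 otic markers, and OC90, one of them, had 1730 and 1525 CPM. It was set apart because 5 of its 10 leading genes were on another marker list, so it is not shown to be non-otic.

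The genomic letters around the annotated start sites differed in how near they came to the sequence that p53 binds. RefSeq windows from 250 bases before to 50 after each start (GRCh38.p14) were found for 7 of the 8 genes, in 13 windows, and PHLDA3 had none. Each window was searched on both strands for the p53 consensus of 2 decamers without a spacer, which is its own reverse complement. PURPL held a match with 0 mismatches 127 to 108 bases before its start, a match that 6 of all 35116 windows of 300 bases share (0.0171%). MDM2 held one with 2 mismatches, 94 to 75 bases before its second start, a closeness reached by 0.649% of windows. SESN1, at 49 to 30 bases before a start, and GDF15, just after its start in an exon, held matches with 3 mismatches, which 5.20% of windows also reach. The best match of CDKN1A had 5 mismatches, that of MIR34AHG 6 and that of ZMAT3 4. Sites farther from a start, or with a spacer between the decamers, were not searched. More mismatches here thus do not show that a gene lacks a p53 site. A match of letters describes the window and is not a measured binding site. The PURPL stretch is chr5:27472115-27472234 on the plus strand, that of MDM2 chr12:68808913-68808952 (plus), that of SESN1 chr6:109009008-109009047 (minus) and that of GDF15 chr19:18386186-18386205 (plus), and capitals mark the 20 bases matched to the consensus:
PURPL: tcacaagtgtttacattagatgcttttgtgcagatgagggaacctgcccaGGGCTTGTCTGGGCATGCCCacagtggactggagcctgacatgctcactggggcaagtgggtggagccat
MDM2: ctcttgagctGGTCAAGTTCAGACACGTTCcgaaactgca
SESN1: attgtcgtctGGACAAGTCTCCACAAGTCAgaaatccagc
GDF15: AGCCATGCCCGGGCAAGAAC

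MIR34AHG is shown through the microRNA it carries, since that is what gives the transcript its name. The mature miR-34a-5p lies within the gene at chr1:9151735-9151756 on the minus strand, and its seed, bases 2 to 8, is in capitals. The microRNA itself was not measured, because the assay captures polyadenylated transcripts.
miR-34a-5p: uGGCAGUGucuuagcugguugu

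In the GENCODE v29 annotation (GRCh38), PURPL is a long intergenic noncoding RNA at chr5:27472292-27496401 on the plus strand, with 8 exon blocks and no overlapping gene on its strand. CDKN1A lies at chr6:36676460-36687339 (plus), MDM2 at chr12:68808176-68850686 (plus), GDF15 at chr19:18374731-18389176 (plus) and MIR34AHG at chr1:9148011-9198906 (minus). ZMAT3 lies at chr3:179017223-179072279, SESN1 at chr6:108986437-109094819 and PHLDA3 at chr1:201464383-201469237, all on the minus strand. PHLDA3 overlaps AC096677.2 and MDM2 overlaps AC025423.1 on the same strand. Position alone may not tell the genes apart in the shared stretches, and how reads there were counted was not checked.

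In otic epithelium-like cells PURPL was 4.87-fold higher in the Matrigel library, while MDM2, ZMAT3 and SESN1 lay within 1.2-fold of equality and CDKN1A stood at 1.55-fold on low counts. Levels are given as CPM of the UMIs summed over a lineage, with ratios of Matrigel over GelNB-CH and 95% intervals that cover counting error only. A gene was called when its larger level reached 5 CPM and its ratio reached 1.5. Because the larger level decides, a gene could enter through its higher side alone, as PURPL did here. A sum does not separate more expressing cells from more UMIs in each cell. Of the 5 genes that reached 5 CPM in these cells only PURPL was called higher, beside 4.44% of all 12646 genes, and none was called lower, beside 3.33%.

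MDM2 had 46.1 CPM in the otic cells of GelNB-CH and 49.6 in those of Matrigel, a ratio of 1.08 (1.02 to 1.14). CDKN1A had 2.63 and 4.06 CPM, from 182 and 169 UMIs, a ratio of 1.55 (1.25 to 1.92). Both levels of CDKN1A were under the minimum for a call, and its ratio was 0.792 in cells of 8000 to 16000 UMIs but 2.86 with doublets kept and 2.80 at a finer clustering. MDM4, an MDM2 relative that also restrains p53, had 71.9 and 77.4 CPM (1.08).

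Among the genes that act on growth and RNA, SESN1 had 26.8 CPM in GelNB-CH and 23.7 in Matrigel, a ratio of 0.886 (0.820 to 0.958). ZMAT3 had 16.4 and 16.5 CPM, a ratio of 1.00. PHLDA3, an inhibitor of AKT signalling, had 6.43 and 9.49 CPM, a ratio of 1.48 (1.29 to 1.70) that stopped just short of a call. These 3 genes therefore did not share a direction.

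PURPL had 287 UMIs (4.14 CPM) in the otic cells of GelNB-CH and 840 (20.2 CPM) in those of Matrigel, a ratio of 4.87 (4.25 to 5.59). By that ratio it ranked 3 of 12646 genes, and over 13 alternatives the ratio ran from 4.14 to 6.202. GDF15 had 1.13 and 2.79 CPM (78 and 116 UMIs), a ratio of 2.47 (1.84 to 3.34) that ran from 1.12 in cells of 8000 to 16000 UMIs to 4.70 without cells low in mitochondrial UMIs. MIR34AHG had 0.448 and 1.68 CPM (31 and 70 UMIs), a ratio of 3.76 (2.43 to 5.93). Both genes stayed under 5 CPM in both libraries, so their ratios rest on few UMIs.

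The PURPL difference was present in each of the 5 otic clusters, with ratios from 3.21 to 6.65 and every interval above 1. MDM2 ran from 0.958 to 1.21 over the same clusters and CDKN1A from 0.604 to 2.82. The share of otic cells with a PURPL UMI was 2.76% in GelNB-CH and 16.2% in Matrigel. With each cell thinned to 5000 UMIs to remove the depth gap, the shares were 1.58% (88 of 5560 cells) and 6.82% (151 of 2213). No lineage here is known to lack PURPL, so the lowest thinned share in each library is set beside these: 0.281% (3 of 1066) in glia of the Schwann or satellite type of GelNB-CH, and 0.759% (3 of 395) in cartilage-like cells of Matrigel. Median depths before thinning were 9294.5 and 14780 UMIs in otic cells, 7072 in those glia and 15113.5 in those cartilage-like cells.

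**Figure D1:**
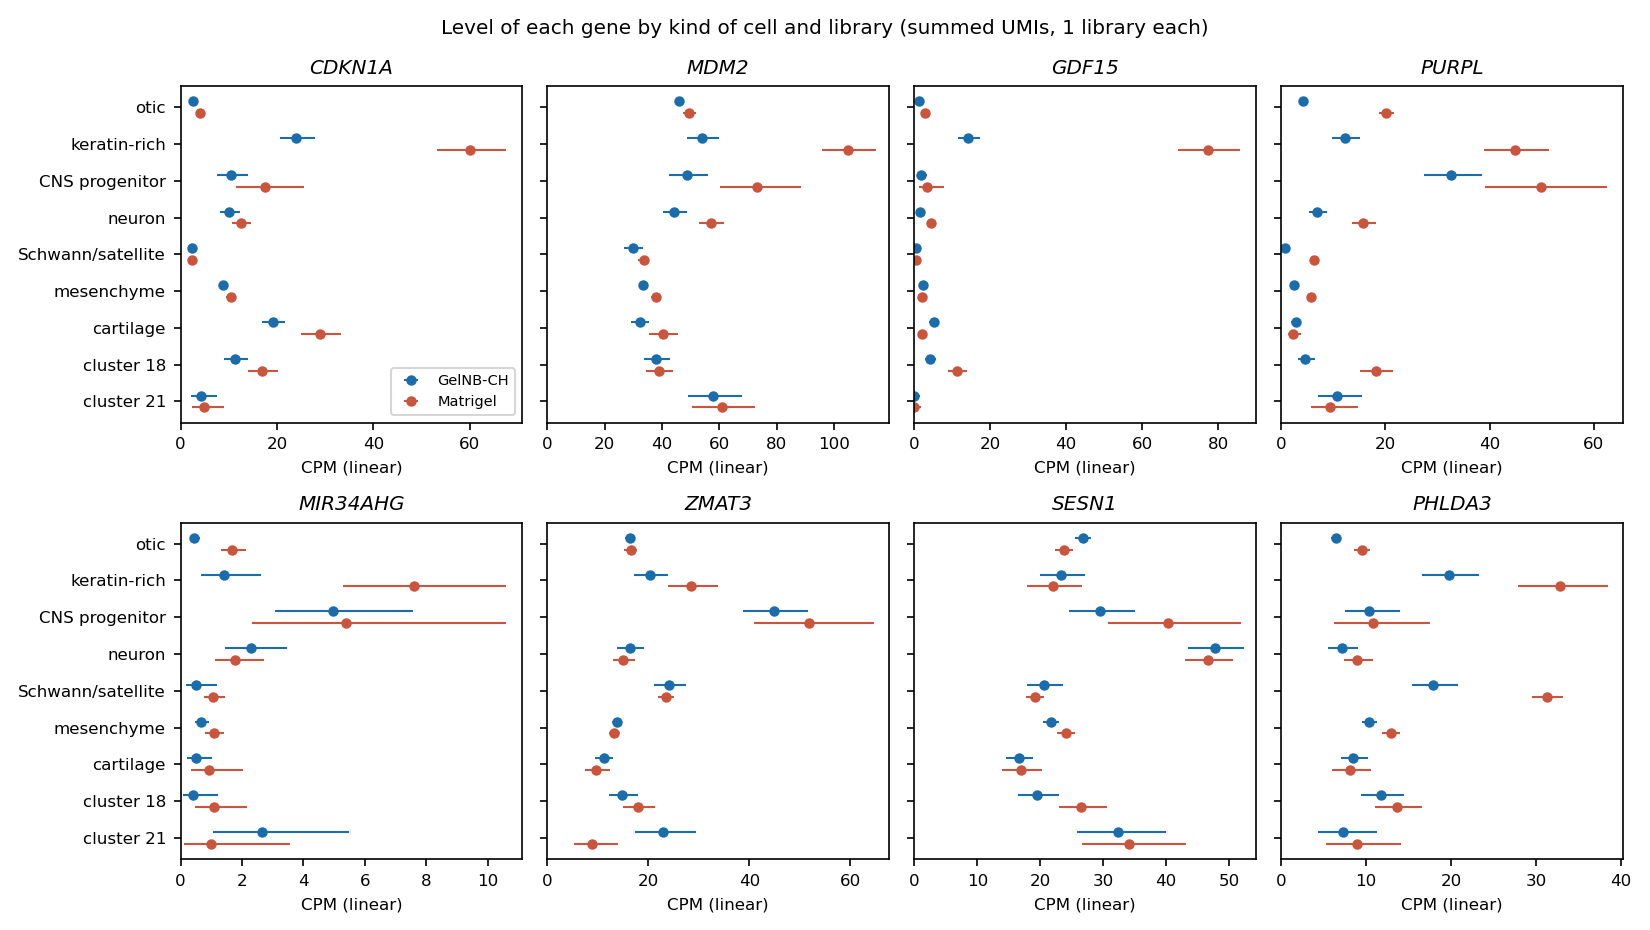
Level of each of the 8 genes (CPM of summed UMIs, linear axis) in each lineage or unnamed cluster with 50 or more cells in both libraries. Each library has 1 point, with bars for the 95% Poisson counting interval. PURPL lies higher in the Matrigel library in 7 of 9 of them, while ZMAT3 and SESN1 points of the 2 libraries mostly lie close together.

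Outside the clusters named otic epithelium-like PURPL was higher in Matrigel in most lineages, and in most of them the other 7 genes differed by less. Over all kept cells it had 4.53 CPM in GelNB-CH and 12.5 in Matrigel (2.76; 2.54 to 2.99), and PURPL and PHLDA3 were the 2 genes called higher of 6 tested, beside 6.03% of all genes. Of the 9 lineages and clusters, 8 allowed a call for PURPL and 7 gave one. Progenitor-like cells of the central nervous system had its highest levels, 32.5 and 49.8 CPM (1.53; 1.14 to 2.04). In that lineage PURPL, CDKN1A and MDM2 were called higher of 7 tested, beside 17.4% of all genes, and it held 103 cells in Matrigel. The CDKN1A ratio of 1.69 there rested on 44 and 26 UMIs, and its interval included 1 (0.996 to 2.80).

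Schwann or satellite glia-like cells showed the widest PURPL gap. GelNB-CH gave 7 UMIs (0.712 CPM) from 1262 cells and Matrigel 227 (6.21 CPM) from 2496, a ratio of 8.73 (4.17 to 22.0) that ranked 2 of 11877 genes. CDKN1A had 2.34 and 2.46 CPM there, MDM2 29.9 and 33.6 and GDF15 0.407 and 0.383. PURPL and PHLDA3 (17.9 and 31.3 CPM, 1.75) were the 2 genes called of 5 tested, beside 7.01% of all genes. PURPL was thus higher in these cells without a difference of that size in CDKN1A, MDM2 or GDF15.

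Mesenchyme-like cells had 2.36 and 5.73 CPM of PURPL (2.43; 1.97 to 3.02), the 1 call among 6 tested genes, beside 5.37% of all genes. Neuron-like cells had 6.88 and 15.8 (2.29; 1.72 to 3.07), again the 1 call among 6, beside 11.4%. They pool cluster 9 (832 cells in GelNB-CH and 125 in Matrigel) with cluster 20 (358 and 664), so their make-up differs between the libraries. In cluster 9 the PURPL ratio was 0.698, the lowest of the 22 clusters, with an interval that included 1. Unnamed cluster 18, whose cells carried 13 of 20 otic markers and were led by ATF3 and KRT17 among others, had 4.54 and 18.1 CPM of PURPL (4.00; 2.71 to 6.05) and 3.99 and 11.1 of GDF15 (2.79; 1.81 to 4.43), its 2 calls of 7, beside 9.42%. As sums, these groups of cells put PURPL on the Matrigel side while MDM2 stayed at 1.13, 1.29 and 1.02.

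Cartilage-like cells and unnamed cluster 21 departed from that order. Cartilage-like cells had 2.73 and 2.32 CPM of PURPL (0.849; 0.434 to 1.58) and 5.04 and 2.01 of GDF15 (0.399; 0.203 to 0.728), so that GDF15 was called higher in GelNB-CH, beside 4.61% of all genes. CDKN1A, at 19.2 and 28.9 CPM (1.51; 1.24 to 1.82), was called in the other direction in the same cells, beside 9.89%. The PURPL value of GelNB-CH rested largely, and that of GDF15 in part, on 28 cells with under 0.5% mitochondrial UMIs. Matrigel had 1 such cell. Without cells under 0.5%, PURPL was 2.26 (1.02 to 5.05) and GDF15 0.571 (0.284 to 1.07). PURPL so turned direction, while GDF15 stayed below 1 with an interval that included 1. In cluster 21, whose 89 Matrigel cells limit its precision, ZMAT3 had 22.8 and 8.91 CPM (0.390; 0.217 to 0.670), the 1 call among 5, beside 12.5% in that direction and 17.2% in the other. PURPL had 10.7 and 9.40 CPM there, and GDF15 had 0 UMIs in both libraries, which allows up to 1.14 and 1.48 CPM.

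The keratin-rich epithelial cluster was the one group of cells in which more than 3 of the 8 genes were called higher in Matrigel. GDF15 had 14.2 CPM in GelNB-CH and 77.2 in Matrigel (5.43; 4.34 to 6.85). PURPL had 12.2 and 44.8 (3.67; 2.84 to 4.77), and CDKN1A 24.0 and 60.0 (2.50; 2.06 to 3.04). MDM2 had 54.0 and 105 CPM (1.94; 1.70 to 2.23). MIR34AHG, at 1.42 and 7.61 CPM (5.36), and PHLDA3, at 19.8 and 32.9 (1.66), completed the 6 genes called of 8, beside 7.4% of all genes, and none was lower, beside 6.14%. At 10 CPM and 2-fold 3 of the 8 were called, beside 1.08%. ZMAT3 stood at 1.40 and SESN1 at 0.942. The joint difference depended on where cluster borders fell: at the finer clustering, or with doublets kept, CDKN1A in this cluster turned to 0.456 or 0.412 and 1 of the 8 genes was called higher. PURPL was higher in Matrigel under all 11 alternatives tried there, from 2.35 to 6.51.

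**Figure D2:**
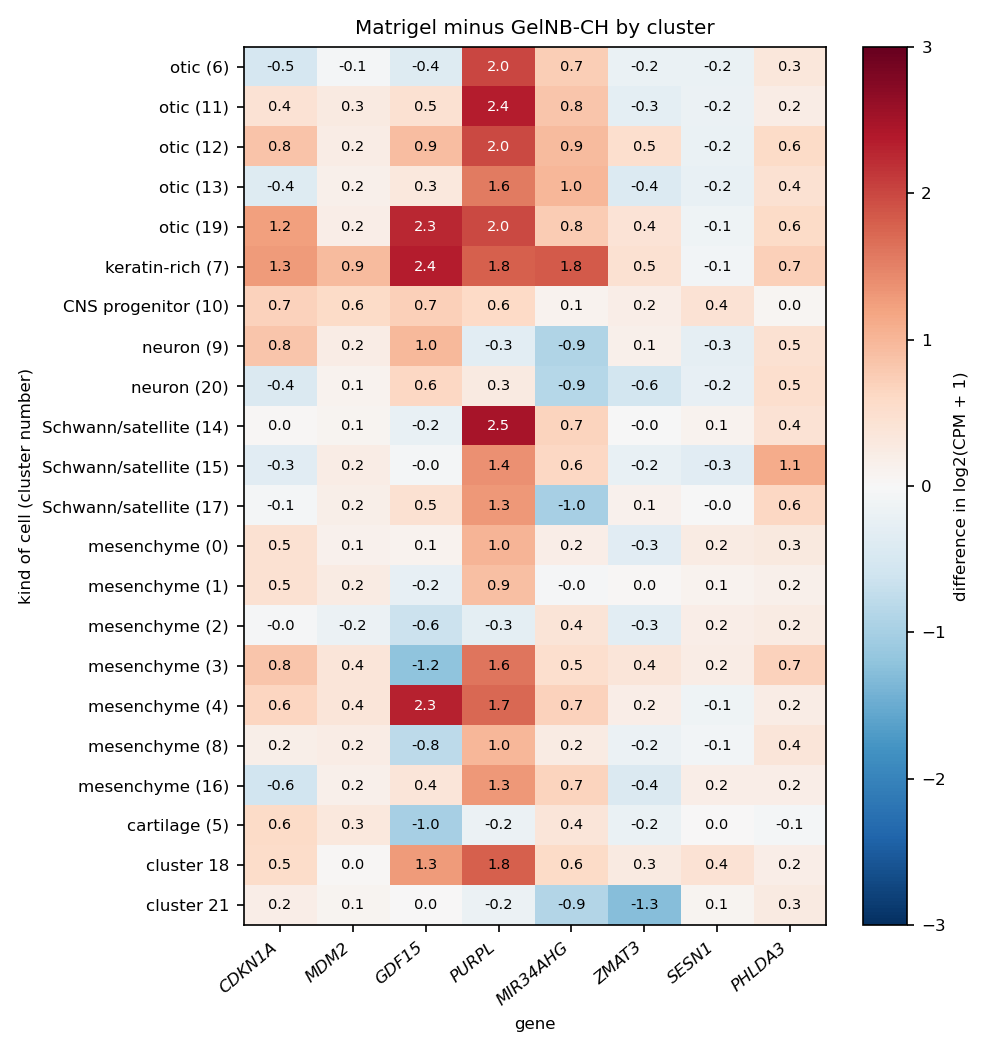
Difference in log2(CPM + 1), Matrigel minus GelNB-CH, for the 8 genes (one axis) in the 22 clusters with 50 or more cells in both libraries (the other axis), with colour for sign and size. PURPL is positive in most clusters, MDM2, ZMAT3 and SESN1 are near 0 in most, and the keratin-rich cluster is positive for 7 of the 8.

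Across the 22 clusters, the differences of CDKN1A followed those of MDM2 and ZMAT3 more than those of PURPL. On the log2(CPM + 1) scale Pearson's r of the differences was 0.60 for CDKN1A with MDM2, 0.65 with ZMAT3 and 0.47 with GDF15, but 0.08 for CDKN1A with PURPL and 0.15 for MDM2 with PURPL. PURPL differences followed those of MIR34AHG (0.65), which reached 5 CPM in only 2 of the 22 clusters. All points share the same 2 libraries and some clusters share a lineage, so these values are a description.

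The level of PURPL over 48 cluster profiles (24 clusters in both libraries) resembled that of MIR34AHG most of 16171 genes (r = 0.81 of log2(CPM + 1)). TCEA1 (0.76), ANKRD45 (0.73), NARS (0.70) and AL022323.4 (0.69) came next. CDKN1A resembled SHB (0.69), TUBA4A (0.69), EIF2S2 (0.69), PLK3 (0.68) and TPM1 (0.68). Ranked were the genes with at least 5 CPM in 2 or more profiles. MIR34AHG lay near that limit, from 0 to 7.61 CPM, and reached 5 CPM in 2 of the 22 larger clusters. They were the keratin-rich cluster and the central nervous system progenitors, where PURPL was also high (44.8 and 49.8 CPM in Matrigel). Some profiles are sums of few cells, such as 4 melanocyte-like cells and 14 of cluster 23 in Matrigel. The profiles also share the libraries and their depths.

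Few other genes of the p53 pathway were called in otic cells. Of 34 other p53 targets 27 reached 5 CPM, 3 were called higher in Matrigel, beside 4.44% of all genes, and none lower, beside 3.33%, and the median log2 difference over the 34 was 0.07 against 0.04 over all genes tested. SESN2, a stress-induced sestrin (2.20), PMAIP1, a cell death gene (1.89), and TNFRSF10B, a death receptor (1.65), had the highest ratios, while APAF1 (0.857) and BAX, the mitochondrial pore former (0.698), were among the lowest. In a list of 17 genes of the pathway's regulation none of 15 tested was called, and their ratios ran from USP7 (0.887), ATR (0.948) and HIPK2 (0.951) to KAT5 (1.10), ATM (1.16) and SIRT1 (1.17). The other CDK inhibitors CDKN1C (0.909), CDKN2D (0.951) and CDKN1B (1.02) gave no call.

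A list that did differ in otic cells was the integrated stress response, the program of ATF4 that also induces GDF15. There 15 of 20 tested genes were called higher in Matrigel, beside 4.44% of all genes, with a median log2 difference of 0.69 over the 22 listed. SESN2 is on this list and on that of the other p53 targets, and it counts in both. CHAC1 (3.66), TRIB3 (3.56) and ATF5 (3.56) were highest and ATF4 (1.19), ATF3 (1.24) and DDIT3 (1.38) lowest. In Schwann or satellite glia-like cells 0 of 14 tested genes of that list were called higher, beside 7.01% of all genes, and 2 lower, beside 2.65%. With 14 genes, 0 calls lie near that share. In cartilage-like cells 1 of 20 was called higher, beside 9.89%, and 2 lower, beside 4.61%, and in the keratin-rich cluster 15 of 20 were higher, beside 7.4%. The proliferation list gave 1 call of 18 in otic cells, CCNB2 (1.52), beside 4.44% of all genes. PLK1 stood at 1.45 and CCNB1 at 1.37, with E2F1 (0.793), TOP2A (0.810) and MKI67 (0.865) at the other end. The immediate early list, which cell dissociation can induce, gave 1 call of 9, ZFP36 (1.79), beside the same 4.44%. FOS stood at 1.43, JUNB at 1.41, EGR1 at 1.12, IER2 at 1.04 and JUN at 0.885. A single call in lists this short is not read as a result about either list.

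Within each library the levels of CDKN1A, GDF15 and PURPL were higher in cells with very few mitochondrial UMIs. A split at 0.5% of UMIs from the 13 mitochondrially encoded genes, chosen after the data were seen and using none of the 8 genes, set apart 709 of 18087 cells (3.92%) in GelNB-CH and 746 of 9813 (7.60%) in Matrigel. Medians over all kept cells were 2.46% and 2.25%. GDF15 had 28.1 CPM in these cells of GelNB-CH and 1.34 in the others, a ratio of 20.9, and 43.5 and 1.62 in Matrigel, a ratio of 26.8. By these ratios it ranked 2 of 12790 genes in GelNB-CH and 1 of 13269 in Matrigel. These cells held 45.3% and 67.6% of GDF15 UMIs, 26.2% and 28.1% of PURPL UMIs and 10.4% and 28.5% of CDKN1A UMIs, so for the latter genes most UMIs lay in the other cells.

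PURPL had 31.1 CPM in the cells under 0.5% and 3.48 in the others of GelNB-CH (8.95), and 48.6 and 9.67 in Matrigel (5.03). CDKN1A had 20.9 and 7.14 in GelNB-CH (2.93), and 37.7 and 7.39 in Matrigel (5.11). MDM2 had 61.8 and 39.4 (1.57), and 80.1 and 41.4 (1.93). MIR34AHG followed with ratios of 8.56 and 5.35, ZMAT3 with 1.85 and 1.71 and PHLDA3 with 1.61 and 1.23, whereas SESN1 stood at 0.951 and 1.33. Called higher were 7 of the 8 genes in GelNB-CH, beside 5.39% of all genes, and 6 of 8 in Matrigel, beside 11.6%. Among these, GDF15 and MIR34AHG in both libraries and PURPL in GelNB-CH reached 5 CPM only in the cells under 0.5%. MDM4 (1.18 and 1.30) was not called.

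The kept cells mix lineages, so the same split was made within each. In otic cells PURPL had 20.98 CPM in cells under 0.5% and 2.79 in the others of GelNB-CH (7.52), and 32.4 and 17.3 in Matrigel (1.87). GDF15 had 11.5 and 0.296 CPM (38.7) in GelNB-CH, and 8.74 and 1.39 (6.27) in Matrigel. CDKN1A had ratios of 2.86 and 2.81, and MDM2 of 1.28 and 1.22. In otic cells 4 of 7 tested genes were called in GelNB-CH, beside 1.56% of all genes, and 3 of 7 in Matrigel, beside 1.11%. Among the called genes, CDKN1A and GDF15 in both libraries and PURPL in GelNB-CH reached 5 CPM only in the cells under 0.5%. They thus entered the count through the side where they were higher. In the keratin-rich cluster of Matrigel the cells under 0.5% had 418 CPM of GDF15 against 1.33, 296 of CDKN1A against 7.45, 296 of MDM2 against 62.5 and 160 of PURPL against 19.2. That group was 54 cells, which held 98.6% of the cluster's GDF15 UMIs and 89.9% of its CDKN1A UMIs.

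Over the 11 pairs of a lineage and a library with at least 20 cells under 0.5%, CDKN1A, GDF15 and MDM2 were higher in those cells in all 11, with the counting interval above 1 in 9, 10 and 7. PURPL was higher in 10 of 11, MIR34AHG, ZMAT3 and PHLDA3 in 9 and SESN1 in 7. The largest PURPL ratio, 82.7, came from cartilage-like cells of GelNB-CH (85.1 CPM in 28 cells against 1.03). The exception for PURPL was cluster 18 of Matrigel, at 14.99 CPM in 27 cells against 18.4.

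**Figure D3:**
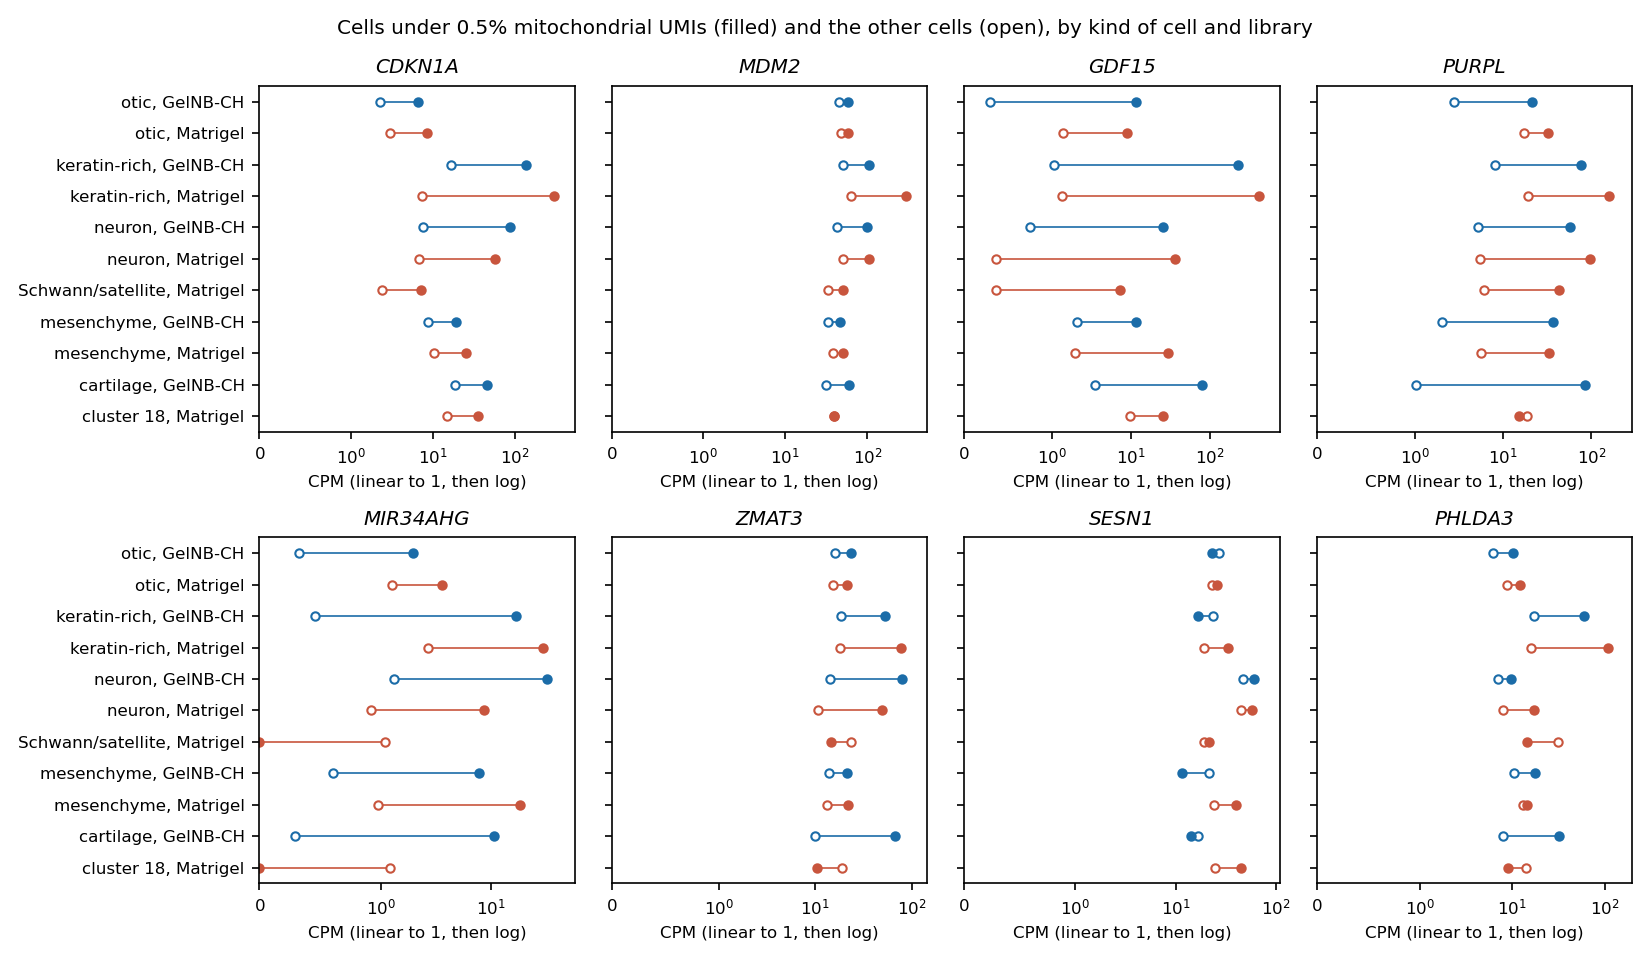
Level of the 8 genes (CPM, axis linear at the low end and logarithmic above) in cells under 0.5% mitochondrial UMIs (filled points) and in the other cells (open points). Shown are the 11 pairs of a lineage and a library with 20 or more cells under 0.5%. Filled points lie to the high side for CDKN1A, GDF15 and MDM2 in all 11 pairs and for PURPL in 10, and on either side for SESN1.

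CDKN1A and GDF15 were highest by far at the lowest mitochondrial shares, while PURPL also stood higher in the next class. In cells under 0.1% mitochondrial UMIs (292 in GelNB-CH and 320 in Matrigel) GDF15 had 65.1 and 112 CPM, against 5.78 and 3.76 between 0.1% and 0.5% and 0.813 to 6.04 above. CDKN1A had 46.7 and 89.0 CPM in the lowest class, and between 4.15 and 9.20 in every other class of either library. PURPL in GelNB-CH had 64.0 CPM under 0.1%, 11.3 in the next class and 3.02 to 3.92 above 0.5%. In Matrigel PURPL had 88.3, 25.5, 22.9, 9.94, 7.11 and 10.1 CPM from the lowest class to the highest. MDM2 had 78.5 and 132 CPM in the lowest class and 36.7 to 51.8 in the others.

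**Figure D4:**
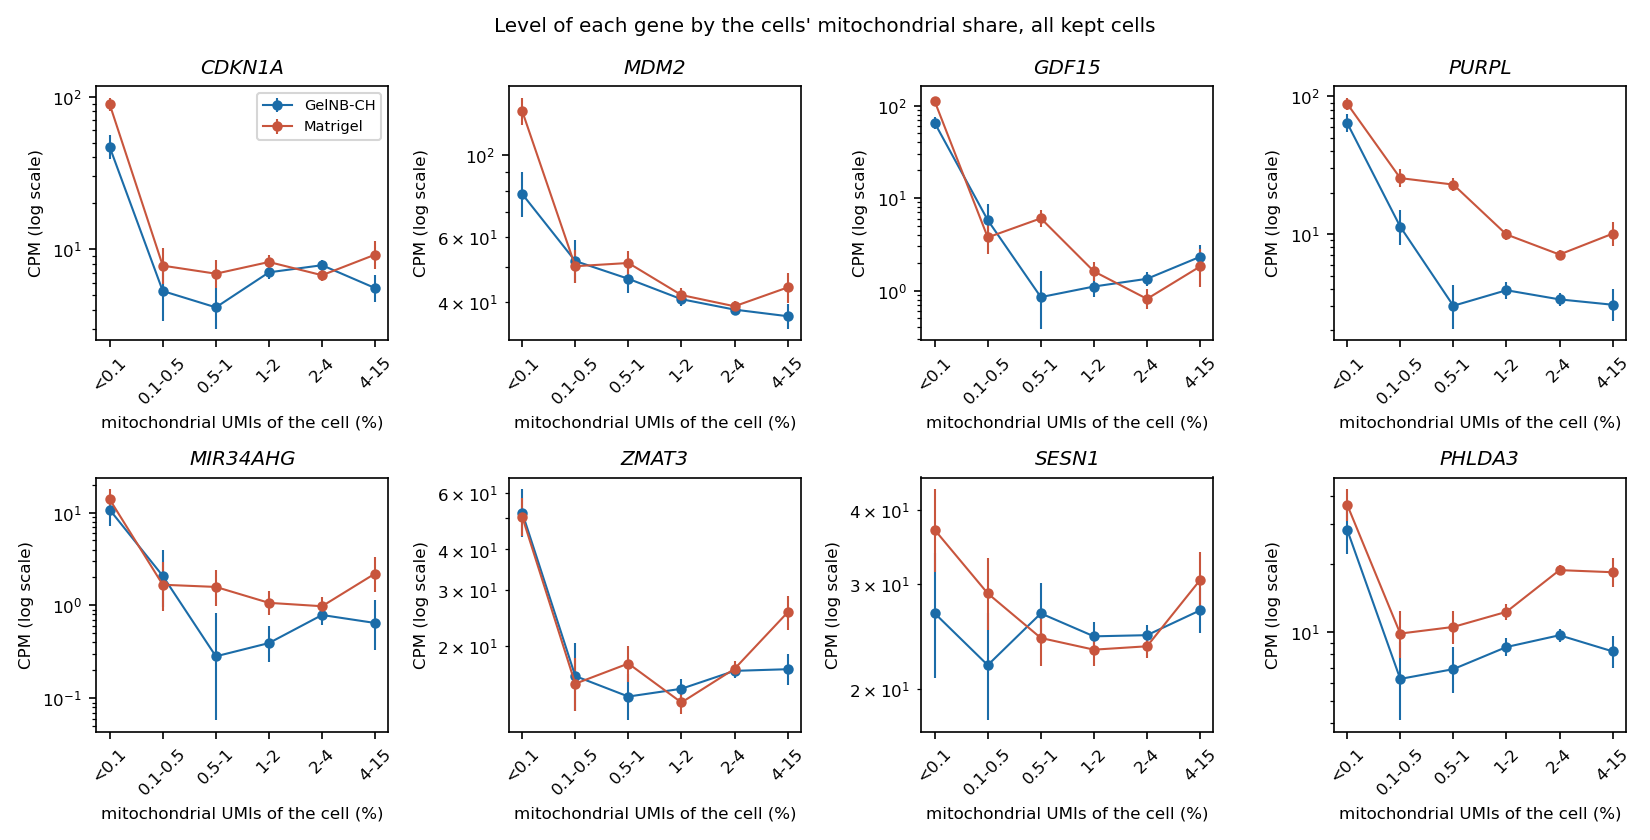
Level (CPM, log axis) of the 8 genes in kept cells of each library by the share of UMIs from mitochondrial genes, in 6 classes bounded at 0.1, 0.5, 1, 2 and 4%, with 95% Poisson counting intervals. GDF15 and CDKN1A are highest in the class under 0.1%, and PURPL of the Matrigel library stays above that of GelNB-CH in all 6 classes.

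Depth, RNA composition and doublet scores of these cells differed from the rest to an extent that varied by lineage. Depth had medians of 8718.5 and 9347 UMIs in otic cells of GelNB-CH and 13612 and 15069.5 in Matrigel. Ribosomal protein genes took 24.96% of otic UMIs against 21.8% in GelNB-CH and 24.2% against 22.5% in Matrigel, and the nuclear RNA MALAT1 had 33053 CPM against 29795 and 40812 against 33208. Doublet scores were 0.102 against 0.115 and 0.0445 against 0.0527. Other lineages differed more: MALAT1 had 50836 CPM against 33005 in the keratin-rich cluster of Matrigel and 51016 against 32233 in its neuron-like cells. Median depth was 4877 UMIs against 13765 in the glia of Matrigel, where 23 cells were under 0.5%, and the doublet score was 0.123 against 0.0584 in neuron-like cells of GelNB-CH. The part of RNA quality, of dissociation or of the sort in these values was not tested.

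Most genes of the ATF4 program were higher in the cells under 0.5% as well. In all kept cells 17 of 21 integrated stress response genes were called higher in GelNB-CH, beside 5.39% of all genes, and 18 of 21 in Matrigel, beside 11.6%, with ATF5 at 7.61 and 5.83 and TRIB3 at 8.26 and 7.26. Of the other p53 targets 6 of 28 and 13 of 30 were called higher and 1 and 2 lower, and of the list on the pathway's regulation 0 of 15 in each library. In otic cells the counts were 17 of 21 and 16 of 21 for the stress response but 3 of 26 and 1 of 28 for the other p53 targets, beside 1.56% and 1.11% of all genes. Of 18 proliferation genes, 13 in GelNB-CH and 14 in Matrigel were lower in all kept cells, beside 9.47% and 11.2% of all genes. Within otic cells 11 of the 18 were lower in GelNB-CH, beside 4.96% of all genes, and 0 in Matrigel, beside 2.7%. All kept cells were also ranked by the smaller of the 2 libraries' ratios, among 7431 genes whose larger level reached 20 CPM in both libraries. GDF15 came first, followed by AL357507.1, TRIB3, ATF5 and PURPL, with the p53 target BBC3 at rank 7 and CDKN1A at rank 12. Of these only ATF5 also reached 20 CPM in the other cells, so the rest entered through their higher side. In otic cells PURPL ranked 13 of 7174 by the same rule, and GDF15 and CDKN1A did not reach 20 CPM.

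Cells under 0.5% made up a larger share of several lineages in Matrigel, so each ratio between the libraries was also taken without them. In GelNB-CH they were 8.13% of otic cells, against 20.7% in the Matrigel library, and 7.30% and 20.2% of the keratin-rich cluster, and 3.95% and 15.1% of neuron-like cells. Without them the PURPL ratio in otic cells was 6.202 (5.24 to 7.37), from 2.79 and 17.3 CPM, so the difference was as large among the remaining cells. It was 2.73 in mesenchyme-like cells, 8.52 in the Schwann or satellite glia, 4.51 in cluster 18, 2.26 in cartilage-like cells, 1.52 in the central nervous system progenitors and 2.35 in the keratin-rich cluster. In neuron-like cells it became 1.06 (0.715 to 1.59), from 5.17 and 5.50 CPM, so there the difference was not present among the remaining cells. The part in these values of the unlike mix of the neuron clusters was not tested.

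CDKN1A, MDM2 and GDF15 behaved otherwise in the remaining cells. Over all kept cells their ratios were 1.04, 1.05 and 1.21, against 2.78 for PURPL. In the keratin-rich cluster CDKN1A turned to 0.440 (0.280 to 0.671), from 16.9 CPM in GelNB-CH and 7.45 in Matrigel, and GDF15 stood at 1.06 and 1.33 CPM, 7 and 5 UMIs. MDM2 was at 1.23 (1.04 to 1.46) there. In otic cells CDKN1A had 2.31 and 3.02 CPM (1.31; 1.01 to 1.70) and GDF15 0.296 and 1.39 (4.70; 2.71 to 8.48), from 19 and 47 UMIs. GDF15 thus kept to the side of PURPL in otic cells and cluster 18 (2.98) but not in mesenchyme-like (0.929), cartilage-like (0.571) or Schwann or satellite glia-like cells (0.877). Among the otic cells under 0.5% the ratios were 1.55 for PURPL, 1.28 for CDKN1A, 1.00 for MDM2 and 0.762 for GDF15.

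At the level of single cells, those with a PURPL UMI were richer in CDKN1A in GelNB-CH. In otic cells thinned to 5000 UMIs CDKN1A had 22.7 CPM in the cells with a PURPL UMI and 1.86 in those without, a ratio of 12.2 (5.52 to 24.3). In Matrigel the values were 7.95 and 2.72, a ratio of 2.93 (0.991 to 7.20). CDKN1A UMIs were clumped: in the thinned otic cells of GelNB-CH 24 of 61 lay in 14 cells, with up to 6 in a single cell. The intervals take UMIs as independent, so they understate the spread. ZMAT3 had 61.4 against 15.5 CPM in GelNB-CH (3.96) and 33.1 against 13.9 in Matrigel (2.39). MDM2 had 77.3 against 44.2 (1.75) and 57.0 against 49.3 (1.16). In the cells at or above 0.5% the CDKN1A ratio was 14.1 (5.31 to 31.7) in GelNB-CH, over 63 cells with a PURPL UMI, and 3.93 (0.711 to 14.5) in Matrigel, over 106. In Matrigel the interval of CDKN1A included 1 in both cases, so a difference was not detectable at this depth. Split the other way, PURPL had 73.7 CPM (40.3 to 124) in the 38 thinned otic cells of Matrigel with a UMI of CDKN1A or GDF15 and 19.1 (16.6 to 21.9) in the 2175 without. In GelNB-CH it had 100.0 (67.5 to 143) in 60 cells and 3.49 (2.83 to 4.26) in 5500.

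Correlations over single otic cells were weak, and in counts this sparse they are no finding. The genes with the highest r with PURPL in both libraries (5560 and 2213 cells, 9392 genes) were ZMAT3 (0.128 and 0.106), AL359232.1, NEAT1, ATF5, RPS27L, FAF1, SORCS1, PHF12, TRPM7 and TNFRSF10B. Those with MDM2 were ASCC3 (0.0621 and 0.0713), DGCR8, NFIA, ANKRD50, GOLGB1, AC009315.1, HNRNPA3, SCAF4, SYNE2 and PTPRK. Pearson's r of GDF15 with CDKN1A was 0.170 and 0.314, that of PURPL with CDKN1A 0.126 and 0.0678 and that of PURPL with MDM2 0.05004 and 0.02995. Those of GDF15 with CDKN1A came from 1 or 2 otic clusters: within cluster 12 they were 0.209 and 0.537, within cluster 6 0.345 in GelNB-CH and -0.00288 in Matrigel, and in the other clusters with a value between -0.0134 and -0.00137. Values were higher in 2 other groups of cells: in the keratin-rich cluster (534 and 246 cells) GDF15 with CDKN1A had 0.481 and 0.653, PURPL with CDKN1A 0.328 and 0.3001 and PURPL with MDM2 0.142 and 0.313. In neuron-like cells (932 and 751) GDF15 with CDKN1A had 0.3002 and 0.347, PURPL with CDKN1A 0.495 and 0.328 and PURPL with MDM2 0.192 and 0.111. Cells of 1 library share its preparation. Among keratin-rich cells at or above 0.5% mitochondrial UMIs (499 and 195) PURPL with CDKN1A had 0.104 and -0.0302. In neuron-like cells the part of cells under 0.5% was not tested.

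Cells with UMIs of at least 4 of the 8 genes were rare, and their share was larger among cells under 0.5%. In GelNB-CH most of them still lay at or above 0.5%. After thinning they were 3.48% of cells under 0.5% (21 of 604) and 0.251% of the others (39 of 15549) in GelNB-CH, and 4.95% (33 of 666) and 0.263% (23 of 8729) in Matrigel. In the keratin-rich cluster they were 6 of 35 and 14 of 51 cells under 0.5% in GelNB-CH and Matrigel, against 2 of 499 and 0 of 195 others, the last allowing a share of up to 1.54%.

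From a clustering at a finer resolution, the cluster with the most cells under 0.5% mitochondrial UMIs was taken, and it was high in CDKN1A and GDF15. The clustering used the counts of these genes as of all others. The low mitochondrial share of that cluster and its many cells under 0.5% follow from this choice and are not a finding. That cluster of 199 cells in GelNB-CH (1.10% of kept cells) and 279 in Matrigel (2.84%) had median mitochondrial shares of 0.0385% and 0.0641%, and held 185 of the 709 and 246 of the 746 cells under 0.5%. It drew 146 and 219 cells from the otic lineage, 22 and 39 from the keratin-rich cluster and 26 and 9 from mesenchyme-like cells. Its levels in GelNB-CH and Matrigel were 88.8 and 113 CPM for GDF15, 55.1 and 79.1 for CDKN1A, 78.2 and 119 for MDM2 and 54.5 and 87.7 for PURPL, all higher than in the otic lineage as a whole.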

How the data were processed

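Per the labels, cells were sorted for the reporter and run on the 10x 3' v3.1 assay, and the authors deposited gene by barcode matrices of UMI counts. The labels name Cell Ranger 4.0.0, the file headers 7.1.0, and the submitters' processing notes STAR and GRCh38. Every gene row carried a name. The replicate check is absent, since each group is 1 library.

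Cells with at least 1000 genes and at most 15% mitochondrial UMIs were kept, doublets were removed with Scrublet (14.9% of GelNB-CH and 6.42% of Matrigel barcodes), and cells were clustered with scanpy 1.11.5 (2000 variable genes, 30 components, Leiden resolution 1.0). Clusters were named from 15 marker lists. Raw UMIs were summed by lineage and library and scaled to CPM over all UMIs. Intervals are exact Poisson for levels, conditional binomial for ratios and Clopper-Pearson for shares, at 95%, and cover counting error only. The floor for a count of 0 is 3 counts. The calls were run on simulated data for otic cells: all 100 genes changed 2-fold and all 100 changed 4-fold were called, and 0% of 12080 unchanged ones. Those data were Poisson counts from 1 pooled profile of genes at 5 CPM or more, without spread between libraries or cells. The run thus checks the arithmetic of the rule and does not give the rate of false calls between 2 real libraries. edgeR 4.0.16 gave the TMM scaling used as an alternative.

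The 8 genes and the lists were chosen with earlier results on these data known. Besides the 8 genes and MDM4, the text names from each list the 3 highest and 3 lowest otic ratios, the 5 genes most like PURPL and CDKN1A over clusters and the 10 most correlated with PURPL and MDM2 over otic cells. Genes outside that rule (such as BBC3 and AL357507.1) were named after their values were seen, and some genes within it are not reported here. The split at 0.5% mitochondrial UMIs was also chosen after the data were seen. PHLDA3 promoter letters and protein sequences were not used here.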

Additional observations from a re-analysis of the deposited data

Results flagged for a closer look

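In 3 cases a gene differed between the libraries in opposite directions in different cell groups, each with a counting interval clear of 1. These differences between cell groups were not tested, since there is 1 library of each kind. GDF15 was 5.43-fold higher in Matrigel in the keratin-rich epithelial cluster (14.2 and 77.2 CPM) but stood at 0.399 in cartilage-like cells (5.04 and 2.01 CPM). ZMAT3 had a ratio of 1.40 in the keratin-rich cluster (20.3 and 28.5 CPM) and 0.390 in unnamed cluster 21 (22.8 and 8.91 CPM). SESN1 had a ratio of 1.36 in unnamed cluster 18 (19.5 and 26.5 CPM) and 0.886 in otic epithelium-like cells (26.8 and 23.7 CPM). Not all of these directions held under other settings. In the keratin-rich cluster ZMAT3 was 0.975 without cells under 0.5% mitochondrial UMIs, 0.992 at resolution 2.0, 0.989 in cells of 8000 to 16000 UMIs and 0.798 after thinning without cells with 4 of the genes. GDF15 without cells under 0.5% was 1.26 (0.315 to 4.60) in the keratin-rich cluster, where it was 0.920 with doublets kept, and 0.571 (0.284 to 1.07) in cartilage-like cells.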

How the results depend on the processing

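The ratio of PURPL, Matrigel over GelNB-CH, stayed above 1 under all 13 alternatives in otic cells and all 11 in the keratin-rich cluster, whereas CDKN1A, MDM2, GDF15, ZMAT3 and PHLDA3 changed direction under at least 1 from a counting interval clear of 1. Of 442 alternative values 289 stayed within a set margin, 139 moved beyond it and 14 changed direction, and the cause was not tested. The margin was the counting interval for ratios and the error of r for correlations. For counts of called genes and list medians it was a fixed tolerance and not an error. In otic cells CDKN1A became 0.792, MDM2 0.982 and GDF15 1.12 in cells of 8000 to 16000 UMIs. GDF15 was 1.61 after thinning. With at least 2000 genes and at most 8% mitochondrial UMIs CDKN1A was 1.21 and GDF15 1.69. With at least 500 genes and at most 25%, CDKN1A, MDM2 and GDF15 were 2.78, 1.20 and 4.23, with doublets kept 2.86, 1.19 and 4.26, and at resolution 2.0 2.80, 1.17 and 4.59, each with 4 of the 8 genes called. At resolution 0.5 PURPL was 4.14 with 2 genes called, by marker score CDKN1A was 2.04, with TMM scaling MDM2 was 1.01, and with no minimum CPM 4 genes were called. Without cells under 0.5% mitochondrial UMIs GDF15 was 4.70 and PURPL 6.202. Other p53 targets called higher numbered 5 without cycling clusters and with doublets kept, 6 with no minimum and 1 at 10 CPM and 2-fold, and 1 was lower with TMM and 1 in cells of 8000 to 16000 UMIs. The stress response median was 0.89 after thinning, 0.90 also without cells with 4 of the genes, 0.82 by marker score, 0.79 with a pseudocount of 0.1 CPM and 0.85 at resolution 0.5.

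In the keratin-rich cluster, cells of 8000 to 16000 UMIs gave CDKN1A 5.39, GDF15 7.64, PURPL 6.51 and ZMAT3 0.989, and thinning gave GDF15 7.07. Thinning without cells with 4 of the genes gave CDKN1A 1.79, MDM2 1.39 and ZMAT3 0.798, with 3 genes called, as at 10 CPM and 2-fold (3). The stricter cell filter gave GDF15 4.08, and the looser one CDKN1A 0.722, MDM2 1.12 and GDF15 1.79, with 1 called. With doublets kept CDKN1A was 0.412, MDM2 1.25, GDF15 0.920 and PHLDA3 0.876, with 1 gene called higher and 1 lower. At resolution 2.0 CDKN1A was 0.456, MDM2 1.24, GDF15 1.36, PURPL 2.62, ZMAT3 0.992 and PHLDA3 0.879, with 1 and 1. Without cells under 0.5% mitochondrial UMIs they were 0.440, 1.23, 1.26, 2.35, 0.975 and 0.926, with 1 and 1. By marker score CDKN1A was 2.00 and MDM2 1.22.

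For the split by mitochondrial share over all kept cells, CDKN1A, MDM2, GDF15 and PURPL stood at 5.59, 1.77, 39.8 and 14.6 in GelNB-CH and 9.64, 2.73, 51.8 and 7.14 in Matrigel with the border at 0.2%. With the border at 1% they were 1.47, 1.35, 8.46 and 4.03, and 2.79, 1.59, 19.8 and 4.16. After thinning CDKN1A and PURPL were 3.67 and 10.6 in GelNB-CH, and CDKN1A, GDF15 and PURPL 5.94, 44.98 and 6.80 in Matrigel. Without thinning, r over otic cells of PURPL with CDKN1A was 0.142 in Matrigel, of PURPL with MDM2 0.0871 and 0.102, of GDF15 with CDKN1A 0.232 and 0.432, and of GDF15 with MDM2 0.105 in Matrigel. Within single otic clusters r of PURPL with CDKN1A ran from -0.00896 to 0.212 in GelNB-CH and from -0.0313 to 0.0920 in Matrigel, and r of PURPL with MDM2 from -0.0284 to 0.136 and from -0.0808 to 0.128. No paired analysis was possible because each group has 1 library. Low counts limit GDF15, MIR34AHG and CDKN1A in most lineages.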
